A study of Mus musculus with 18 samples.

Results

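The transcripts described here are 84 genes that were low in mouse brain 4 h after a photothrombotic stroke and, at 3 days, were no longer far below sham animals, with no upper limit on the 3 day level. They were chosen from the 34921 genes of the copy analysed, which is ordered by the authors' deposited q-value and ends at a q-value of 0.908, so that genes beyond it are not analysed here and all genes means those up to it. The choice used group means of log2(FPKM + 1), where FPKM is fragments per kilobase of transcript, scaled by the library total. A gene had to have a mean of at least 5 FPKM in sham right, a 4 h mean at least 0.6 below the sham right mean with all 3 libraries at 4 h below all 3 sham right libraries, and a 3 day mean above -0.2 relative to sham right. Of the 6966 genes at 5 FPKM or more, 279 met the 4 h condition, which is 4.01% of them, and 100 of these also met the 3 day condition. Of these 100, 16 were set aside by name, 11 of them predicted genes and 5 glial or vascular genes, which left the 84. The levels in sham right, at 4 h and at 3 days therefore chose the members, and these levels are given below as a description with no test. The levels in contralateral left, at 1 day and at 10 days took no part in the choice, and only those 3 groups were tested.

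Total RNA was sequenced from micro-punched cerebral tissue of male C57BL/6 mice, an inbred strain, at 9 weeks of age. In photothrombosis, light of a laser closes vessels under the skull after injection of the dye rose bengal. The mice were given 100 mg/kg rose bengal into the peritoneum 5 min before 15 min of light at 532 nm and 40 mW through a 2 mm fiber placed 2 mm right of bregma, the point where sutures of the skull meet. The 18 libraries form 6 groups of 3 animals. Stroke tissue of the right side was taken after 4 h, 1 day, 3 days or 10 days, the matching right-side piece came from sham mice (sham right), and a left-side group is called contralateral left. The labels do not say what the sham mice were given. The extraction protocol takes the left-side punches from stroke mice, chosen at random, while sham is the word in their titles and disease state, and they carry no time after stroke. Values of a group are listed in the order of the replicate numbers, 1, 2 and 3 for sham right, 1, 3 and 5 for contralateral left, 2, 3 and 6 at 4 h, 1, 3 and 4 at 1 day, 1, 2 and 8 at 3 days and 1, 2 and 5 at 10 days. Whether a left-side punch shares a mouse with another library is not stated. The lesion punch follows the T2-weighted image and holds all cells of that piece of tissue.

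Brain tissue cut off from its blood supply is damaged within hours, and the cells of the vessel wall, the astrocytes that cover it and the microglia around it respond on different schedules. Brain endothelial cells are sealed to each other by tight junctions and carry transporters that move drugs, hormones and bile acids across the barrier. Astrocytes are joined by gap junctions and take up ions and transmitter, and microglia are the resident macrophages that sense nucleotides from damaged cells. Ribosomal proteins and subunits of the respiratory chain are made in nearly all cells from short, abundant transcripts.

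The members fall into groups by what their products do. There were 13 genes of the vessel wall and its barrier, 22 of astrocytes and other glia, 3 of microglia and the interferon response, 9 of neurons, peptides and activity, 11 of the cytosolic ribosome, 6 of mitochondria, 5 of redox and thiol chemistry, and 15 other housekeeping or unsorted genes. The promoters of 4 members are shown as examples: an interferon response gene, a pair of barrier genes that differ in GGGCGG, and a ribosomal protein gene. Promoters were not compared between these groups. Each stretch runs 5′ to 3′ from 150 bases before the start of transcription to 20 bases from it, as RefSeq gives it on GRCm38.p6. Capitals mark matches on either strand to the interferon-stimulated response element (GAAA, any 2 bases, GAAA) in Isg15, where overlapping matches were joined, GGGCGG on the other strand in Cldn5, and the run of C and T bases over the start in Rpl35. The Slco1a4 stretch holds no GGGCGG, so it has no capitals. GGGCGG in the Rpl35 stretch is left unmarked.
Isg15 promoter, chr4:156200799-156200968, minus strand: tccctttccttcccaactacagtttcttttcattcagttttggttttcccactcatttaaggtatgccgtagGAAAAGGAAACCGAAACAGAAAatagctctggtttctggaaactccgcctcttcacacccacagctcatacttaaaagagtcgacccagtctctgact
Slco1a4 promoter, chr6:141856201-141856370, minus strand: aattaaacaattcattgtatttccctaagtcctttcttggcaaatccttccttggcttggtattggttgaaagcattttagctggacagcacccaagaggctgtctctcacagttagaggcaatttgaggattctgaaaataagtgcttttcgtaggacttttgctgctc
Cldn5 promoter, chr16:18776697-18776866, plus strand: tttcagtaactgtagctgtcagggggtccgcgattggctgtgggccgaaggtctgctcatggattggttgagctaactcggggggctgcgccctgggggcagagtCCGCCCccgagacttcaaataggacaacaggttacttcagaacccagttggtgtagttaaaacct
Rpl35 promoter, chr2:39005112-39005281, minus strand: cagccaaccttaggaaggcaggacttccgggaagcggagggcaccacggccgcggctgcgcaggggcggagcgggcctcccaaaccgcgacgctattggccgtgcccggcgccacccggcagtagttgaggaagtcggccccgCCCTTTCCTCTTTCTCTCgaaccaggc

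RefSeq held a promoter for 66 of the 84 members, and windows of 300 bases, from 250 before the start to 50 after it, were searched on both strands. The GC box, GGGCGG, was present in 34 of the 66 (51.5%), against 71.9% of the 5165 promoters of genes at 5 FPKM or more and 38.2% of all 27025. CCAAT was present in 40.9% of the member promoters and in 43.6% of those at 5 FPKM or more. TATAAA was in 9.09% and 8.34% of them, and CACGTG in 12.1% and 12.3%. The interferon-stimulated response element was found in 1 member, Isg15, and in 3.37% of the promoters at 5 FPKM or more. A cyclic AMP response element, TGACGTCA, was found in 0 of 66 and in 4.01% of the promoters at 5 FPKM or more. A run of at least 6 C and T bases over the start was in 2 of the 6 ribosomal members with a promoter, and in 8.94% of the promoters at 5 FPKM or more. A match is a description of letters, and no factor was measured at these sites.

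Individual libraries stood apart from their groups in the levels of the members, and these are given before the results that rest on them. The quantity is the median over the 84 members of the difference from the sham right mean on log2(FPKM + 1). It was 0.13 and 0.21 in contralateral left libraries 1 and 3. In contralateral left library 5 it was -0.63 (-0.02 over all 6966 genes), and 81 of the 84 members lay below the sham right mean. At 4 h it was -0.51, -0.60 and -0.997 in libraries 2, 3 and 6, at 1 day -0.25, -0.16 and -0.50 in libraries 1, 3 and 4, and at 10 days 0.05, 0.13 and -0.39 in libraries 1, 2 and 5. Contralateral left library 5 was the lowest of its group for 70 of the 84 members, compared with 38.9% of all genes at 5 FPKM or more. Library 6 was the lowest at 4 h for 59 members (70.2%, against 47.0% of all genes). Library 5 was the lowest at 10 days for 61 members, a share of 72.6% that is near the 65.7% of all genes. In 10 day library 5, mitochondrially encoded transcripts held 44.6% of the summed FPKM, against 24.4% to 39.0% in the other 17 libraries, and its median over all 6966 genes was -0.32. Brain markers were present in all libraries, with Snap25 of synapses at 349 to 576 FPKM and Mbp of myelin at 57.5 to 188, while Ttr of the choroid plexus ran from 0.407 to 625. The parts of library quality and of transcript length in the results were not tested.

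**Figure D1:**
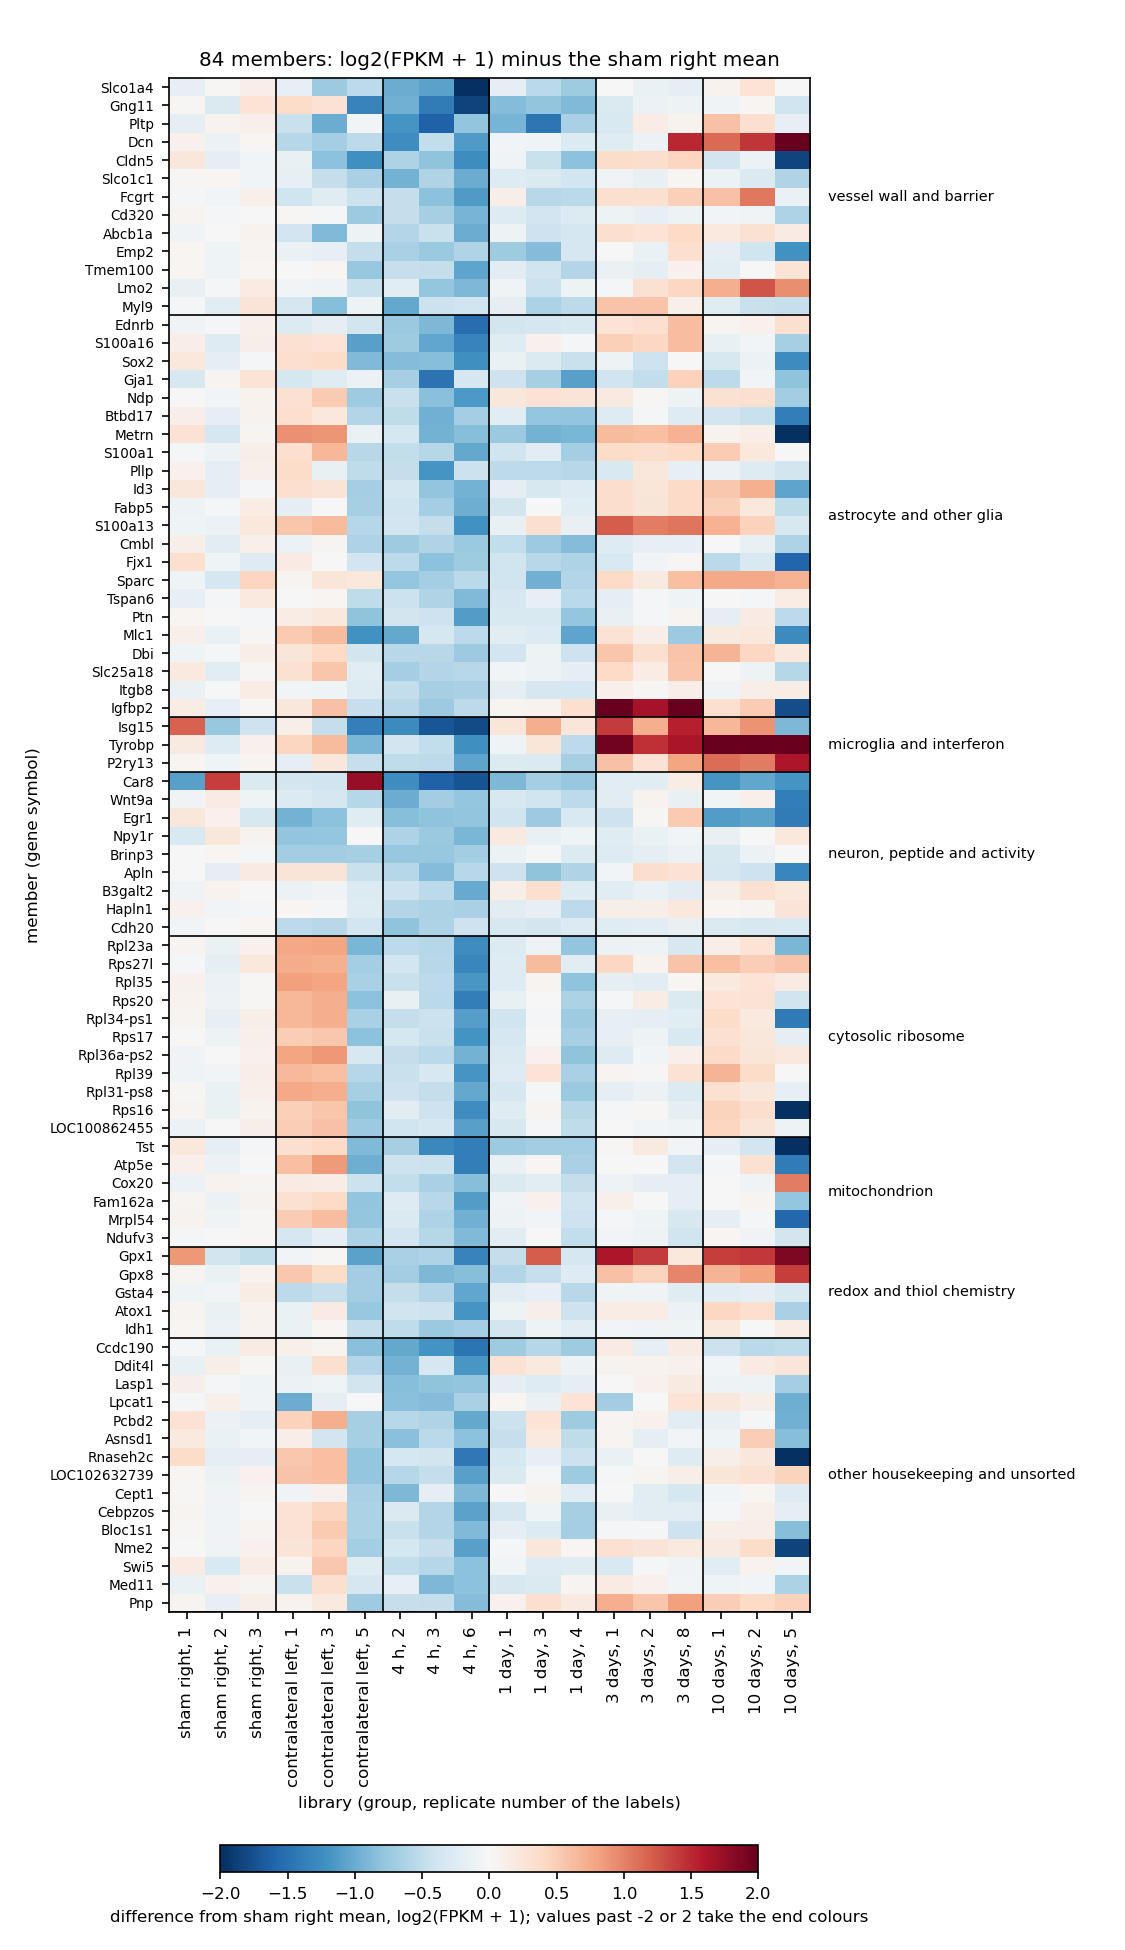
Level of each of the 84 members (vertical axis, ordered by role and by the 4 h difference) in each of the 18 libraries (horizontal axis), as the difference from the sham right mean on log2(FPKM + 1), blue for lower and red for higher. The 4 h columns are blue for all 84 members, contralateral left 5 is blue in most of them, and the 3 and 10 day columns turn red for Tyrobp and most of Gpx1, with Igfbp2 red at 3 days.

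At 4 h the members stood at 20.2% to 67.2% of their sham right FPKM, with a median of 60.5%. The median over members of the 4 h minus sham right difference was -0.69 on log2(FPKM + 1), against -0.03 over all 6966 genes. In bulk tissue, fewer cells of a type and less RNA per cell cannot be told apart. At 1 day 73 of the 84 group means were still below sham right (3202 of all 6966 genes), with a median of -0.31 (all genes 0.02). At 3 days 39 members were above sham right (3703 of all 6966 genes). The median was -0.03 (all genes 0.02), which the 3 day condition sets in part. It was 0.02 after scaling without mitochondrial genes and 0.01 without 3 day library 1. Of the 39, 8 stood at 0.6 or more above sham right (9.52% of the 84, against 2.68% of all genes). They were Igfbp2 (1.98), Tyrobp (1.67), Isg15 (1.23), S100a13 (1.104), Gpx1 (1.07), Pnp (0.70), Gpx8 (0.67) and Metrn (0.64). The 3 day condition kept genes that were still low at 3 days out of the members, but not out of all genes. The counts of 39 and 8 therefore follow in part from the choice, and all genes are not a like set for them. At 10 days the median was -0.11 (all genes -0.14), and 38 members were above sham right (2036 of all 6966 genes). The rule placed 4 h below sham right and below 3 days in every member, so the next count follows in part from the choice. The 4 h group had the lowest mean of the 6 groups for 78 of the 84 members, compared with 22.95% of all genes. The exceptions were Metrn and Cmbl, which were lowest at 1 day, and Egr1, Btbd17, Fjx1 and Apln, which were lowest at 10 days. These comparisons all share the sham right libraries. The size of the set depended on scaling and on single libraries: the rule found 35 genes, 31 of them members, after scaling without mitochondrial genes, 186 without 4 h library 2 and 130 without 4 h library 3.

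The threshold of 0.6 cut through genes with nearly equal values. Just inside were Pnp (-0.602), Igfbp2 (-0.602) and Itgb8 (-0.604), and just outside were Vtn (-0.5995), Mcee (-0.599) and Ugp2 (-0.596). At the 3 day limit of -0.2, Cdh20, Cmbl and Rpl34-ps1 were inside at -0.199, -0.198 and -0.193, and 1700086L19Rik, Gramd3 and Serf1 were outside at -0.201, -0.205 and -0.207. The 179 genes that met the 4 h condition but not the 3 day condition had medians of -0.73 at 4 h, -0.45 at 3 days and -0.36 at 10 days.

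Genes of the vessel wall and barrier made up 13 members, with a median difference from sham right of -0.81 at 4 h, -0.40 at 1 day, 0.06 at 3 days and 0.01 at 10 days. All 13 were below sham right at 1 day, and all 13 were below it in contralateral left (median -0.43). Slco1a4 (chromosome 6, 141805440 to 141856199, minus strand), an organic anion transporter of the barrier, had 9.23, 10.6 and 11.5 FPKM in sham right and 9.19, 5.93 and 6.94 in contralateral left. Slco1a4 stood at 4.73, 4.43 and 1.51 at 4 h, 9.13, 6.87 and 5.98 at 1 day, 10.4, 9.4 and 9.02 at 3 days and 11, 12.9 and 10.47 at 10 days. All 4 h libraries were below every other library, library 6 was the lowest, and the 10 day values lay in or above the sham range. The related thyroid hormone transporter Slco1c1 had 12.9, 13 and 12.2 FPKM in sham right, 6.13, 8.0 and 5.85 at 4 h and 12, 11.3 and 13.1 at 3 days. Abcb1a, the drug efflux pump P-glycoprotein, had 6.72, 7.09 and 7.52 FPKM in sham right, 4.41, 4.95 and 3.06 at 4 h and 9.08, 8.77 and 9.63 at 3 days, so that all of its 3 day values exceeded all sham values.

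Cldn5 (chromosome 16, 18776847 to 18778262, plus strand), the main claudin of endothelial tight junctions, had 35.1, 26.1 and 28.7 FPKM in sham right and 26.7, 16.5 and 12.1 in contralateral left. Cldn5 stood at 19.1, 16.6 and 12 at 4 h, 28, 21.6 and 16.4 at 1 day, 38.5, 38.2 and 40.2 at 3 days and 22.5, 27.3 and 7.62 at 10 days. Its 3 day values lay above all sham values, while contralateral left library 5 and 10 day library 5 were as low as the 4 h group or lower. Without 10 day library 5 its 10 day difference from sham right was -0.25 in place of -0.78. Gng11 (chromosome 6, 4003904 to 4008445, plus strand), a G protein gamma subunit abundant in endothelium, had 24, 19 and 28.6 FPKM in sham right and 30.5, 28.9 and 8.7 in contralateral left. Gng11 stood at 11.6, 8.26 and 5.81 at 4 h, 12.5, 13.2 and 12.3 at 1 day, 19.1, 21.5 and 21.8 at 3 days and 22.5, 24.1 and 17.7 at 10 days. The 4 h and 1 day libraries of Gng11 were all below the sham range, and contralateral left library 5 was between the 4 h values while the other left libraries were above the highest sham value. These are members of a list of 30 endothelial markers only in part (Cldn5, Slco1a4, Slco1c1 and Abcb1a). Of that list 11 reached 5 FPKM, with a median of -0.40 at 4 h and 7 of 11 below sham right. The summed level over all 30 markers was 189 to 195 FPKM in sham right and 177 to 190.2 at 4 h. At 1 day the median of the 11 was 0.06 and the summed level was 196 to 213 FPKM, so the list as a whole was not low at 1 day.

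Pltp, which transfers phospholipids between lipoproteins, had 10.11, 12.1 and 12.5 FPKM in sham right and 8.2, 5.27 and 11 in contralateral left. Pltp stood at 4.52, 3.09 and 6.27 at 4 h, 5.55, 3.59 and 6.99 at 1 day, 9.15, 12.8 and 12.2 at 3 days and 17.8, 14.9 and 10.12 at 10 days. Its 4 h and 1 day libraries were all below sham right, and its exons overlap those of Ctsa on the other strand, so its reads are uncertain to that extent. Fcgrt, the neonatal receptor for immunoglobulin G, had 5.56, 5.45 and 6.18 FPKM in sham right, 3.85, 2.8 and 2.07 at 4 h and 7.39, 7.37 and 8.35 at 3 days. Myl9, the regulatory light chain of smooth muscle myosin, had 10.8, 9.46 and 13.5 FPKM in sham right, 4.96, 7.97 and 8.19 at 4 h and 17, 17 and 12 at 3 days. Dcn and Lmo2 belong to the same group and are given with the tests. The remaining members of the group, Cd320, Emp2 and Tmem100, had 4 h differences of -0.69, -0.67 and -0.66.

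The 22 genes of astrocytes and other glia had a median of -0.69 at 4 h, -0.34 at 1 day, 0.21 at 3 days and -0.20 at 10 days. The 10 day library medians were 0.04, 0.13 and -0.59 in libraries 1, 2 and 5. Their 4 h differences ran from -1.05 to -0.60. Ednrb, the endothelin B receptor, had 15.5, 16.1 and 17.7 FPKM in sham right and 13.5, 14.3 and 12.5 in contralateral left. Ednrb stood at 9.44, 8.34 and 5.04 at 4 h, 12.6, 12.8 and 13.1 at 1 day, 20.1, 21 and 25.6 at 3 days and 17.2, 17.6 and 20.8 at 10 days. Its 3 day libraries were all above sham right, and its 4 h libraries were below all others. S100a16, a calcium-binding protein, had 28.6, 21.6 and 28.2 FPKM in sham right and 32.2, 31.6 and 11.6 in contralateral left. S100a16 stood at 15.4, 12.1 and 9.66 at 4 h, 21.8, 27.7 and 25.1 at 1 day, 36.5, 35 and 40.5 at 3 days and 23.3, 25 and 15.9 at 10 days. All 3 day values of S100a16 exceeded the sham values, and contralateral left library 5 and 4 h library 6 were the lowest left and 4 h values. Sox2, a transcription factor of neural stem cells and astrocytes, had 20.9, 15.9 and 17.7 FPKM in sham right and 23.1, 23.6 and 9.34 in contralateral left. Sox2 stood at 9.42, 9.56 and 7.13 at 4 h, 16.5, 14.5 and 13 at 1 day, 16.8, 13.3 and 18.2 at 3 days and 14.3, 16.6 and 7.0 at 10 days. At 4 h Sox2 was below every sham library and again contralateral left library 5 and 10 day library 5 lay in the 4 h range or below it.

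Gja1, the gap junction protein connexin 43, had 13.1, 17.3 and 20.2 FPKM in sham right, 10.07, 5.35 and 13 at 4 h and 12.4, 11.5 and 23.4 at 3 days. Mlc1, a membrane protein of astrocyte endfeet, had 48.9, 41.4 and 46 FPKM in sham right, 21.9, 35.5 and 31.4 at 4 h and 55.9, 50.003 and 26.9 at 3 days. In both genes the 3 day libraries lay on either side of the sham range. Btbd17, a marker of resting astrocytes, had 6.61, 5.02 and 6.23 FPKM in sham right, 3.87, 2.55 and 3.3 at 4 h and 4.78, 5.84 and 4.81 at 3 days. Hapln1, which links proteoglycans to hyaluronan in perineuronal nets, is filed here with the neuronal members and had 5.92, 5.3 and 5.44 FPKM in sham right, 3.36, 3.21 and 3.16 at 4 h and 6.07, 6.13 and 6.6 at 3 days. These 4 are the members in a list of 18 resting astrocyte markers, all of which reached 5 FPKM: 16 of the 18 were below sham right at 4 h (median -0.34), 4 met the 4 h condition, and the list's median was -0.12 at 3 days and -0.38 at 10 days.

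Some glial members passed well above sham right at 3 days. Igfbp2 (chromosome 1, 72824503 to 72852474, plus strand), which binds insulin-like growth factors, had 22.6, 18 and 20.8 FPKM in sham right and 23.9, 31 and 14.5 in contralateral left. Igfbp2 stood at 13.5, 12 and 13.9 at 4 h, 21.2, 21.5 and 25.7 at 1 day, 91.3, 66.9 and 95.2 at 3 days and 26, 29.5 and 5.26 at 10 days. Its 3 day mean of 84.4 ± 15.3 FPKM (SD, n = 3) was 4.13 times the sham mean of 20.5 ± 2.3, and 10 day library 5 was the lowest of all 18. S100a13, which takes part in release of growth factors that lack a signal peptide, had 21.2, 20.8 and 26.4 FPKM in sham right, 17.2, 16 and 9.25 at 4 h and 53.9, 47.3 and 48.6 at 3 days, and all 3 day values were above the sham range. Metrn, a secreted factor for glia and neurites, had 48.6, 31.5 and 41.2 FPKM in sham right and 76.3, 74 and 36.2 in contralateral left. Metrn stood at 31.1, 20.2 and 21.6 at 4 h, 23.3, 20.3 and 20.7 at 1 day, 62.2, 61 and 65.2 at 3 days and 42, 43.8 and 6.65 at 10 days. It was lowest at 1 day among the group means, 10 day library 5 was far below the other 10 day libraries, and its exons overlap other annotated genes. Dbi, which binds acyl-CoA esters, had 81.4, 84.3 and 94.6 FPKM in sham right, 58.7, 58.6 and 52.1 at 4 h and 128, 109 and 129 at 3 days. Id3, an inhibitor of helix-loop-helix transcription factors, had 21.3, 15.6 and 17.4 FPKM in sham right, 13.9, 10.02 and 8.86 at 4 h and 23.3, 21.4 and 23.7 at 3 days, and Ndp, a ligand of a Frizzled receptor made by astrocytes, had 5.21, 5.01 and 5.53 FPKM in sham right, 3.57, 2.48 and 1.82 at 4 h and 6.08, 5.33 and 4.85 at 3 days. Ptn, the growth factor pleiotrophin, had the highest sham level of the glial members, with 155, 149.97 and 145.7 FPKM in sham right, 116, 113 and 68.6 at 4 h and 136, 148 and 155 at 3 days.

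Of the 3 members of microglia and the interferon response, Isg15 (chromosome 4, 156199424 to 156200818, minus strand), a ubiquitin-like protein made in response to interferon, was the lowest of all members relative to sham right at 4 h (-1.59). It had 18.4, 4.06 and 5.42 FPKM in sham right and 8.34, 5.17 and 2.32 in contralateral left. Isg15 stood at 2.53, 1.62 and 1.48 at 4 h, 9.15, 13.2 and 9.09 at 1 day, 21.5, 13.1 and 24.2 at 3 days and 12.6, 15 and 3.59 at 10 days. Sham right library 1 stood apart at more than 3 times the other sham libraries, all 4 h values were below them as well, and all 1 day values lay above sham libraries 2 and 3 but below library 1. It is the only one of 16 interferon-stimulated genes on the list used here that is a member. In that list 5 genes reached 5 FPKM, all 5 were below sham right at 4 h (median -0.35), and the summed level ran from 49.1 to 109.7 FPKM in sham right, 48.1 to 52.5 at 4 h and 106.2 to 127 at 1 day. The microglial members Tyrobp and P2ry13 are given with the tests.

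The 9 members of neurons, peptides and activity had a median of -0.73 at 4 h, -0.32 at 1 day, -0.10 at 3 days and -0.31 at 10 days. None of 15 general neuron markers was a member, their median at 4 h was 0.18, and 4 of the 15 were below sham right. Car8, a protein related to carbonic anhydrase that binds the IP3 receptor, had 3.43, 23.4 and 6.66 FPKM in sham right and 6.27, 6.11 and 30.5 in contralateral left. Car8 stood at 2.95, 2.07 and 1.84 at 4 h, 4.05, 4.86 and 4.53 at 1 day, 7.11, 6.99 and 9.39 at 3 days and 3.13, 3.59 and 3.13 at 10 days. Sham right library 2 and contralateral left library 5 were well above all other libraries. Egr1, an immediate early transcription factor, had 58.1, 52.1 and 39.4 FPKM in sham right and 25, 27.6 and 41.5 in contralateral left. Egr1 stood at 26.9, 27.6 and 27.9 at 4 h, 37.3, 29.4 and 39.8 at 1 day, 36.9, 50.2 and 71 at 3 days and 22.2, 22.9 and 18.1 at 10 days. Its 10 day libraries were below all sham libraries, and without 10 day library 5 the 10 day difference was still -1.09. Only 1 of the 22 immediate early genes on the list is a member, and 3 met the 4 h condition.

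Brinp3, a nervous system protein linked to cell cycle arrest, had 5.47, 5.54 and 5.2 FPKM in sham right and 2.94, 2.96 and 3.05 in contralateral left. Brinp3 stood at 2.8, 2.78 and 2.97 at 4 h, 4.9, 5.3 and 4.3 at 1 day, 4.34, 4.59 and 4.91 at 3 days and 4.1, 4.92 and 5.4 at 10 days. Its contralateral left libraries were as low as the 4 h libraries, and library 5 did not stand apart from 1 and 3. Cdh20, a cadherin, was likewise low in all left libraries, with 6.37, 6.71 and 6.83 FPKM in sham right, 4.29, 4.17 and 4.86 in contralateral left and 3.39, 3.95 and 4.71 at 4 h. Npy1r, the Y1 receptor for neuropeptide Y, had 6.8, 10.25 and 9.04 FPKM in sham right, 4.56, 4.58 and 8.49 in contralateral left, 5.28, 4.71 and 4.09 at 4 h and 9.91, 7.64 and 8.04 at 1 day. Here contralateral left libraries 1 and 3 were low and library 5 was in the sham range. Apln, the peptide apelin, had 11.5, 9.85 and 12.9 FPKM in sham right, 7.33, 5.76 and 7.36 at 4 h and 10.8, 14.8 and 14 at 3 days, and Wnt9a, a Wnt ligand, had 5.1, 6.24 and 5.04 FPKM in sham right, 2.23, 2.98 and 2.75 at 4 h and 4.51, 5.78 and 4.83 at 3 days.

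The 11 members of the cytosolic ribosome had a median of -0.66 at 4 h, -0.33 at 1 day, -0.07 at 3 days and 0.12 at 10 days. Their 4 h differences spanned -0.78 to -0.61. All 11 were above sham right in contralateral left (median 0.22), which is the reverse of the vessel wall group. Split by library, the contralateral left median of the ribosomal members was 0.67, 0.72 and -0.68 in libraries 1, 3 and 5, and the 4 h median was -0.41, -0.48 and -1.17 in libraries 2, 3 and 6. Rpl31-ps8, listed under a pseudogene name, had the highest sham level of any member, with 352, 317 and 371 FPKM in sham right and 585, 572 and 217 in contralateral left. Rpl31-ps8 stood at 259, 247 and 169 at 4 h, 273, 339 and 206 at 1 day, 302, 319.9 and 287 at 3 days and 427, 403 and 309 at 10 days. Rpl23a had 316, 277 and 324 FPKM in sham right, 211.8, 205 and 128 at 4 h and 281, 284 and 243 at 3 days, and Rpl35 had 199, 172 and 191 FPKM in sham right and 330.4, 325 and 119.2 in contralateral left. Rpl35 stood at 136, 129.7 and 82.4 at 4 h, 156, 195 and 106 at 1 day, 165, 159.6 and 191 at 3 days and 215, 226 and 209 at 10 days. In both Rpl31-ps8 and Rpl35 the left libraries 1 and 3 were the highest of all and left library 5 was lower than every sham library. Rps16 had 130.3, 114 and 131 FPKM in sham right, 107, 93.2 and 52 at 4 h and 124, 127 and 110.4 at 3 days. Ribosomal protein genes share near-identical pseudogenes, so the level of each single member is uncertain. LOC100862455 and Rpl34-ps1 carry the identifiers that GENCODE gives as Rpl23 and Rpl34. Over all 73 ribosomal protein genes at 5 FPKM or more, 73 were below sham right at 4 h with a median of -0.52, 15 met the 4 h condition and 7 of these are members.

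Among the 6 mitochondrial members the median was -0.65 at 4 h, -0.25 at 1 day, -0.14 at 3 days and -0.30 at 10 days. The 10 day library medians were -0.01, -0.05 and -1.09 in libraries 1, 2 and 5. Tst, which transfers sulfur in mitochondria, had 29.3, 22 and 24.7 FPKM in sham right and 31.6, 33.6 and 13.2 in contralateral left. Tst stood at 15.5, 9.76 and 9.08 at 4 h, 14.9, 15.2 and 15.3 at 1 day, 25.7, 28.6 and 24.2 at 3 days and 22.1, 19.1 and 4.77 at 10 days. Its 4 h and 1 day libraries were all below sham right, and without 10 day library 5 its 10 day difference was -0.28 in place of -0.91. Atp5e, the epsilon subunit of ATP synthase, had 39.99, 34.5 and 37.7 FPKM in sham right, 27.9, 27.3 and 13.8 at 4 h and 37.1, 37.3 and 28.3 at 3 days, and Ndufv3, a subunit of complex I, had 22.9, 23.3 and 23.7 FPKM in sham right, 17.7, 15.4 and 12.2 at 4 h and 22.4, 21.7 and 17.5 at 3 days. In a list of nuclear-encoded respiratory chain genes, all 46 measured were below sham right at 4 h and 26 met the 4 h condition, but the list's median was still -0.39 at 3 days, so that Atp5e and Ndufv3 were the only ones that qualified. Mrpl54, a protein of the mitochondrial ribosome, had 24.6, 22 and 23.9 FPKM in sham right, 19, 15 and 11.6 at 4 h and 23.1, 22 and 18.7 at 3 days.

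The 5 members of redox and thiol chemistry had a median of -0.70 at 4 h and 0.06 at 3 days. Gsta4, a glutathione transferase for lipid aldehydes, had 38.1, 39.1 and 45.1 FPKM in sham right, 29, 26.9 and 19.2 at 4 h and 38.7, 38.5 and 34.1 at 3 days, and Idh1, the cytosolic isocitrate dehydrogenase that makes NADPH, had 19.4, 17.3 and 19.96 FPKM in sham right, 13, 10.9 and 11.4 at 4 h and 18.1, 17.9 and 17.7 at 3 days. Atox1, a copper chaperone, had 65.5, 57.3 and 65.6 FPKM in sham right, 47.1, 47.1 and 27.3 at 4 h and 69.3, 69.7 and 58 at 3 days. All 3 were near the sham values at 3 days. The glutathione peroxidases Gpx1 and Gpx8 are given with the tests.

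The 15 other members included Ccdc190, of unsettled function, which had 10.8, 10.03 and 12.6 FPKM in sham right and 12.1, 11.6 and 5.8 in contralateral left. Ccdc190 stood at 4.95, 4.28 and 3.41 at 4 h, 6.4, 7.13 and 6.4 at 1 day, 12.5, 9.85 and 12.6 at 3 days and 7.98, 7.3 and 7.57 at 10 days. Its 4 h libraries were the lowest 3 of all, its 3 day libraries were at the sham level and its 10 day libraries were below all sham libraries. Lasp1, an actin-binding protein, had 17, 15.2 and 14.7 FPKM in sham right, 8.18, 8.54 and 8.66 at 4 h and 15.6, 16.7 and 17.8 at 3 days, with little spread in any of these groups. Pnp, purine nucleoside phosphorylase, had 8.65, 7.28 and 9.08 FPKM in sham right, 5.73, 5.72 and 4.09 at 4 h and 14.4, 12.6 and 15.5 at 3 days, and its 3 day values were all above sham right. Its identifier has another name in GENCODE and its exons overlap the neighbouring Pnp genes, so its level is uncertain. In all, 23 members have exons that overlap another annotated gene, and the strand handling of the counting is not given in the sources used here. In this group the 4 h difference ran from -1.23 to -0.60.

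**Figure D2:**
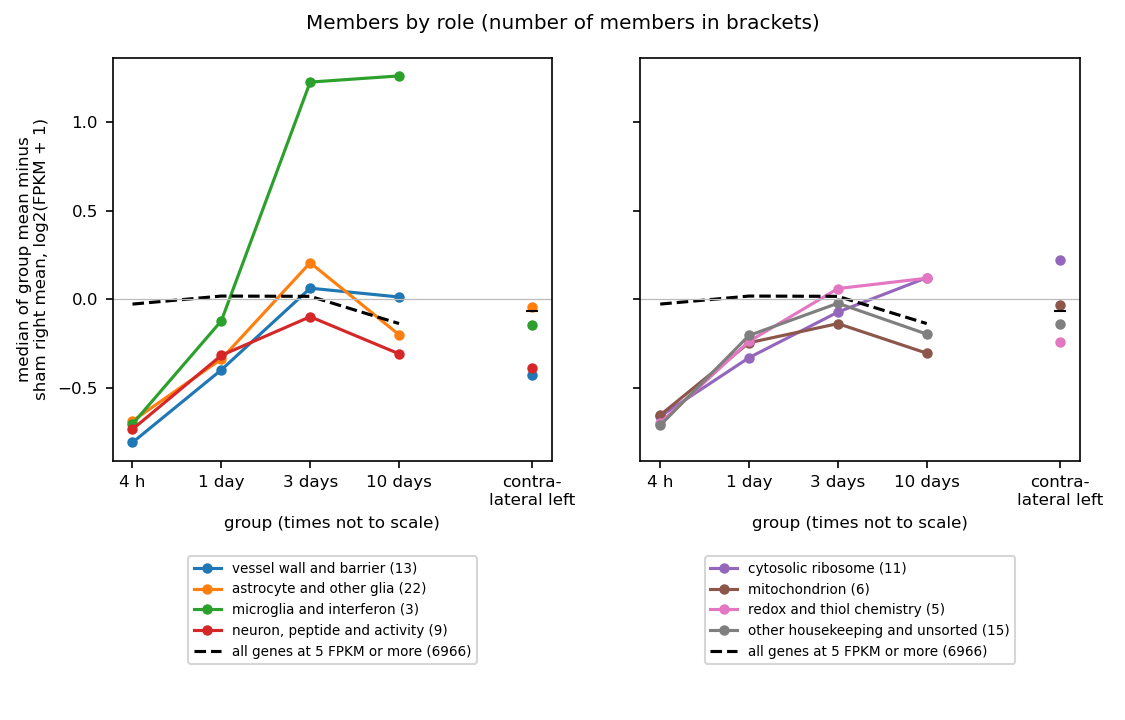
Median over the members of each role of the group mean minus the sham right mean on log2(FPKM + 1) (vertical axis) at 4 h, 1 day, 3 days and 10 days and in contralateral left (horizontal axis, times not to scale), with all 6966 genes as a dashed line. All roles start between -0.65 and -0.81 at 4 h, and the microglia and interferon group alone passes 1 at 3 and 10 days (1.23 and 1.26).

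The members are shorter transcripts than most. The longest annotated transcript had a median of 1768.5 bases among members and 3055.5 bases among all genes at 5 FPKM or more with an annotation (6958), and 23 of 84 members (27.4%) were under 1000 bases compared with 9.79% of all. The 179 genes that were low at 4 h and not back at 3 days were shorter still, with a median of 1125 bases. By length, 17.0% of genes under 1000 bases met the 4 h condition, 4.56% of those from 1000 to below 2000, 2.77% from 2000 to below 4000 and 1.26% of those of 4000 or more. The members' shares of these bins were 3.37%, 1.72%, 1.03% and 0.477%. Median 4 h differences over all genes in the bins were -0.39, -0.15, 0.00 and 0.07. Member exons numbered 4 at the median against 7 for all genes, and GC content was 50.5% against 49.9%.

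Short transcripts as a class were low in the contralateral left, 4 h, 1 day and 10 day libraries that were lowest in the members. In 10 day library 5 all genes were low as well. Over all 682 genes under 1000 bases the median difference from the sham right mean was -0.42 in contralateral left library 5, -0.71 in 4 h library 6, -0.44 in 1 day library 4 and -0.47 in 10 day library 5, while it was 0.34 and 0.41 in contralateral left libraries 1 and 3. The rule required every member, of any length, to be low in all 3 libraries at 4 h. The 4 h values of members split by length or role are therefore a description. The 61 members of 1000 bases or more stood at -0.59, -0.68 and -0.91 at 4 h, and in contralateral left library 5 they stood at -0.57. The 23 shorter members stood at -0.45, -0.56 and -1.07 at 4 h. Neurons, peptides and activity, with a median length of 4012 bases and no member under 1000, had 4 h library medians of -0.75, -0.75 and -0.78 and contralateral left medians of -0.37, -0.40 and -0.28.

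**Figure D3:**
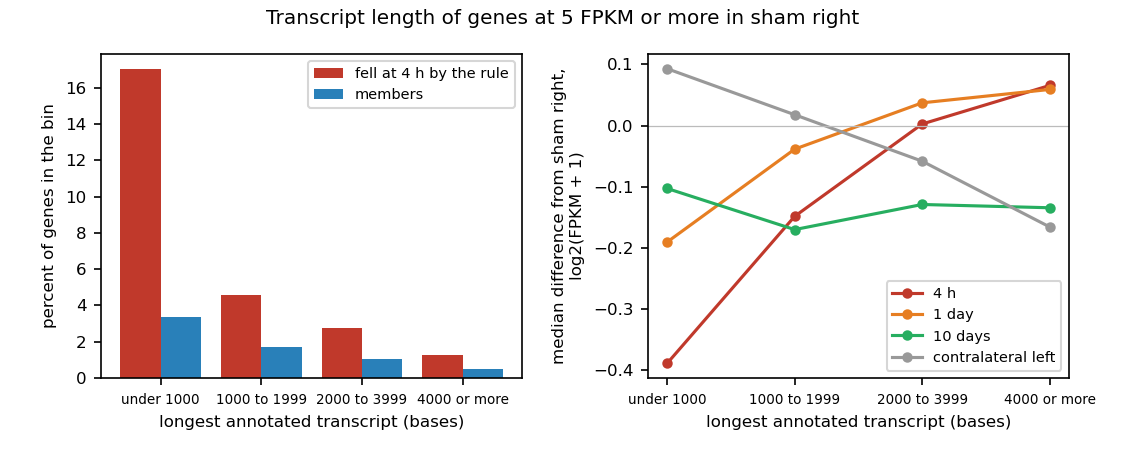
Left, percent of the genes at 5 FPKM or more in each bin of longest annotated transcript length (bases) that met the 4 h condition and that are members. Right, the median difference from sham right on log2(FPKM + 1) over all genes in each bin at 4 h, 1 day, 10 days and in contralateral left; at 4 h the median climbs from -0.39 under 1000 bases to 0.07 at 4000 bases or more.

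**Figure D4:**
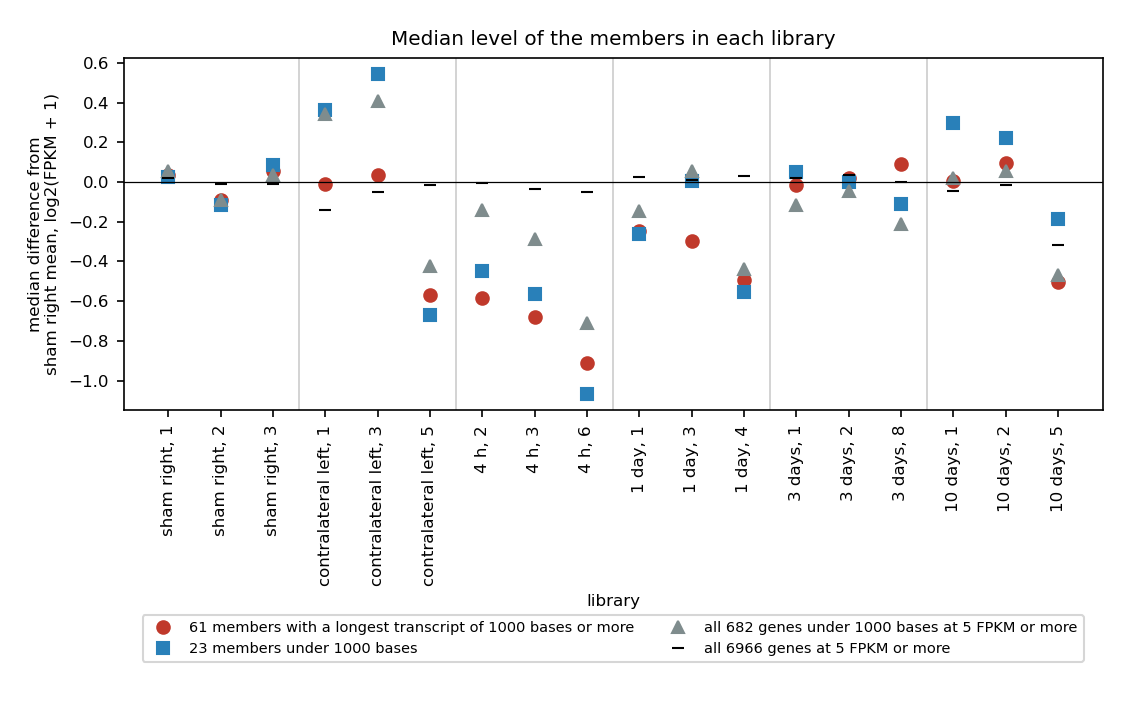
Median difference from the sham right mean on log2(FPKM + 1) (vertical axis) in each library (horizontal axis) for the 61 longer members, the 23 members under 1000 bases, all 682 genes under 1000 bases and all 6966 genes. Contralateral left 5 sits with the 4 h libraries for both classes of members, away from contralateral left 1 and 3.

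The contralateral left group is a control that the rule did not use, and its 3 libraries also enter the tests given further on. All 84 member means at 4 h were below the contralateral left means, compared with 44.8% of all genes, and this count follows in part from the choice on low 4 h values. For 24 of the 84 (28.6%) all 4 h libraries were below all contralateral left libraries, beside 6.23% of all genes at 5 FPKM or more. Without contralateral left library 5 the count was 71 (29.9% of all genes). Both counts also follow in part from the choice, since the rule required low values in these same 4 h libraries. At 1 day, 59 of the 84 means (70.2%) were below contralateral left, compared with 39.0% of all genes, with a median of -0.23 (all genes 0.09). The share was 83.8% of the 179 genes that met the 4 h but not the 3 day condition, and 95.9% of the 73 ribosomal protein genes. The members' median was -0.45 without contralateral left library 5, -0.12 without library 1, -0.08 without library 3 and -0.15 without 1 day library 4. For 6 of the 84 members (7.14%) all 1 day libraries were below all contralateral left libraries, a share near the background of 5.48%. When contralateral left took the place of sham right in the rule, 27 genes qualified and 13 of them were among the 84: Apln, Ccdc190, Cox20, Dbi, Ednrb, Fjx1, Gpx8, Igfbp2, Lasp1, Metrn, Slc25a18, Slco1a4 and Sparc.

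Tests were made with limma on log2(FPKM + 1) over the 9 libraries of contralateral left, 1 day and 10 days, for 14016 genes, with Benjamini-Hochberg adjustment over all of them within a comparison. At 1 day against contralateral left, 0 of 84 members passed an adjusted p of 0.05, where 0.421% of all genes passed in either direction. At an unadjusted p under 0.05 there were 6 members (7.14%, against 9.61% of all genes), 2 of them higher and 4 lower. This result turned on contralateral left library 5. Without it 11 members passed, 10 of them lower at 1 day and Npy1r higher, where 2.23% of all genes were called lower. The lower ones were Gng11 (difference -1.17 ± 0.16, SE, adjusted p = 0.0210), Rpl36a-ps2 (-1.17), Rpl35 (-1.14), Rpl31-ps8 (-1.11), S100a1 (-0.94), LOC102632739 (-0.92), Gpx8 (-0.89), LOC100862455 (-0.83), Sparc (-0.80) and Ccdc190 (-0.75). The labels give no time for the left punches, so side and time cannot be told apart in this comparison.

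At 10 days against contralateral left, 5 of 84 members rose and no other member passed. The share of 5.95% is near the 4.97% of all genes that were called higher. At an unadjusted p under 0.05 there were 19 members (22.6%, against 14.2% of all genes), 15 of them higher. At 10 days against 1 day, 7 of 84 members (8.33%) rose and no other member passed, beside 3.95% of all genes called higher. At an unadjusted p under 0.05 there were 16 (19.0%, against 13.2% of all genes), 15 of them higher. The median of the 10 day minus 1 day difference was 0.18 over the members, with 56 of 84 (66.7%) above 0, and -0.16 over all genes, with 28.9% above 0. It was 0.02 over the 179 genes that met the 4 h but not the 3 day condition, with 52.5% above 0. Over the 73 ribosomal protein genes it was 0.24, with 74.0% above 0, so the rise was not particular to the members. The comparisons with contralateral left and with 1 day share the 10 day libraries, so their calls are not independent. Against contralateral left the count became 8 without contralateral left library 5, 6 of them higher and 2 lower (8.07% of all genes called in either direction). Against 1 day it became 4 without 1 day library 1 (2.58% of all genes called) or library 4 (3.05%). Without contralateral left library 5 and 10 day library 5 together, 20 members passed against contralateral left, 10 higher and 10 lower, where 15.6% of all genes passed in either direction. Against 1 day 19 passed, 18 of them higher, where 7.12% of all genes passed.

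Tyrobp (chromosome 7, 30413760 to 30417585, plus strand), the signalling adaptor of TREM2 and other receptors of microglia and myeloid cells, had 33.2, 24.4 and 31.2 FPKM in sham right and 39.9, 46 and 15.1 in contralateral left. Tyrobp stood at 22.2, 20.5 and 12 at 4 h, 27.7, 35 and 20.03 at 1 day, 114, 82.7 and 93.2 at 3 days and 335, 234 and 246 at 10 days. The 3 day libraries were above all earlier ones, and the 10 day libraries were higher again with no overlap. It rose by 3.099 ± 0.39 on log2(FPKM + 1) at 10 days against contralateral left (SE, limma adjusted p = 0.000836), and by 3.27 ± 0.39 against 1 day (adjusted p = 0.000892). P2ry13, a purine receptor of microglia, had 6.33, 5.74 and 6.45 FPKM in sham right and 5.25, 7.4 and 4.19 in contralateral left. P2ry13 stood at 4.03, 4.0 and 2.45 at 4 h, 4.92, 4.84 and 3.51 at 1 day, 9.77, 7.74 and 11.4 at 3 days and 14.6, 13.7 and 21 at 10 days. All 3 and 10 day values lay above all other libraries, and it rose by 1.41 ± 0.23 against contralateral left (limma adjusted p = 0.00434) and by 1.67 ± 0.23 against 1 day (adjusted p = 0.00212).

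Some other markers of microglia and myeloid cells were also higher at 10 days. In a list of 15 homeostatic microglia markers that includes P2ry13 and Sparc, 8 were higher at 10 days against contralateral left and 11 against 1 day, and the summed level was 165 to 207 FPKM in sham right, 137 to 151 at 4 h and 620.3 to 709.9 at 10 days. The summed level of 9 monocyte and macrophage markers was 16.2 to 22.6 FPKM in sham right, 9.31 to 19.1 at 4 h and 589 to 2081 at 10 days, with none of them at 0 in all libraries. Lyz2 alone had 9.42 to 15.5 FPKM in sham right and 512 to 1900 at 10 days. Of the 8 that were tested, 5 were higher at 10 days against contralateral left and 4 against 1 day. Of 12 neutrophil and lymphocyte markers 4 were tested, and 1 was higher in each comparison. The share of infiltrating cells in the levels of Tyrobp and P2ry13 was not tested.

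Dcn (chromosome 10, 97479609 to 97518143, plus strand), the matrix proteoglycan decorin of fibroblasts, had 5.62, 4.78 and 5.43 FPKM in sham right and 3.21, 2.93 and 3.36 in contralateral left. Dcn stood at 1.64, 3.43 and 1.85 at 4 h, 5.07, 4.9 and 4.18 at 1 day, 4.32, 4.79 and 16.7 at 3 days and 12.8, 15.9 and 46 at 10 days. At 10 days all libraries were above all sham, left, 4 h and 1 day libraries, with library 5 far above the others, and at 3 days only library 8 was high. Dcn rose by 2.41 ± 0.38 against contralateral left (SE, limma adjusted p = 0.00332) and by 1.96 ± 0.38 against 1 day (adjusted p = 0.0152). Lmo2, a transcriptional adaptor of endothelial and blood cells, had 6.03, 6.68 and 7.75 FPKM in sham right and 6.53, 6.43 and 4.7 in contralateral left. Lmo2 stood at 5.73, 3.55 and 3.2 at 4 h, 6.43, 4.79 and 6.26 at 1 day, 6.69, 8.61 and 9.4 at 3 days and 11.9, 17.7 and 13.9 at 10 days. Its 10 day libraries were above all others, and it rose by 1.16 ± 0.19 against contralateral left (limma adjusted p = 0.00510) and by 1.17 ± 0.19 against 1 day (adjusted p = 0.00646). Of 9 meningeal and perivascular fibroblast markers 5 rose in each comparison, Dcn among them. Igfbp2, the other member on that list, did not pass. It had -0.42 against contralateral left and -0.46 against 1 day (limma adjusted p = 0.761 and 0.693).

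Gpx1, the main cytosolic glutathione peroxidase, had 47.8, 19.9 and 18.1 FPKM in sham right and 24.8, 26.4 and 11.9 in contralateral left. Gpx1 stood at 16.1, 16.5 and 9.69 at 4 h, 18.2, 61.1 and 20.4 at 1 day, 81.2, 69.7 and 30.2 at 3 days and 68.7, 70.7 and 97.2 at 10 days. Sham right library 1 and 1 day library 3 were high within their groups and 3 day library 8 was low, while the 10 day libraries were all above the left ones. It rose by 1.92 ± 0.45 at 10 days against contralateral left (SE, limma adjusted p = 0.0347) and did not pass against 1 day (1.42 ± 0.45, adjusted p = 0.153). Gpx8, a glutathione peroxidase of the endoplasmic reticulum, had 8.27, 7.12 and 8.4 FPKM in sham right and 12, 10.46 and 4.52 in contralateral left. Gpx8 stood at 4.48, 3.77 and 3.94 at 4 h, 4.96, 5.46 and 6.45 at 1 day, 12.3, 11.2 and 16.6 at 3 days and 13.3, 14.6 and 22.1 at 10 days. Its 10 day libraries were above all 1 day libraries, with a rise of 1.39 ± 0.31 (limma adjusted p = 0.0352), and contralateral left library 5 was far below left libraries 1 and 3.

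Sparc, a matricellular protein that binds collagen and is made by microglia and endothelium, had 54.8, 45.8 and 78.5 FPKM in sham right and 60.6, 68.7 and 67.8 in contralateral left. Sparc stood at 33.8, 35.8 and 39.8 at 4 h, 44, 29.3 and 38.4 at 1 day, 76.7, 66.2 and 88.4 at 3 days and 99.6, 99.5 and 95.3 at 10 days. Its 10 day libraries were within 5 FPKM of each other and above all others, and it rose by 1.39 ± 0.19 against 1 day (SE, limma adjusted p = 0.00178). Against contralateral left it had 0.57 ± 0.19 (adjusted p = 0.156). Pltp rose by 1.26 ± 0.30 at 10 days against 1 day (limma adjusted p = 0.0431), with all 10 day libraries above all 1 day libraries. Gpx1, Pltp, Gpx8 and Dcn lost their call under several other settings, while Tyrobp passed in both comparisons under all 18 settings that were tried.

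**Figure D5:**
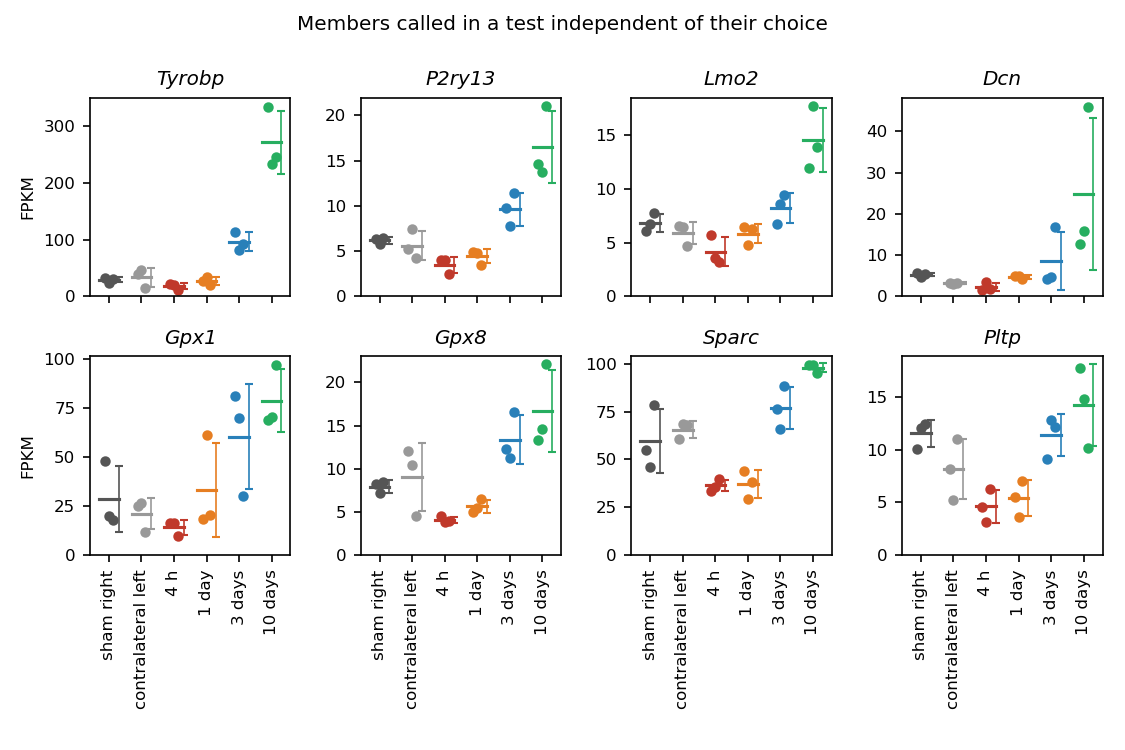
FPKM in each library (points) of the 8 members called in a test, with the group mean (horizontal bar) and the SD over 3 libraries (error bar), by group on the horizontal axis. Tyrobp, P2ry13 and Lmo2 are highest at 10 days in every library, and Dcn at 10 days is spread from 12.8 to 46.0 FPKM.

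At 10 days some members were low again. The difference from sham right was -0.6 or lower for 9 of the 84 (10.7%, against 5.60% of all genes): Egr1 (-1.19), Car8 (-1.13), Tst (-0.91), Fjx1 (-0.81), Cldn5 (-0.78), Btbd17 (-0.73), Metrn (-0.73), Apln (-0.69) and Emp2 (-0.60). Without 10 day library 5 only Egr1 and Car8 stayed at -0.6 or lower (2.38%, against 1.36% of all genes), and Metrn stood above sham right (0.11). For Car8, sham right library 1 (3.43 FPKM) lay within the 10 day range of 3.13 to 3.59, and sham right library 2 stood apart at 23.4. In the main fit none of the 9 was called lower at 10 days against contralateral left or against 1 day. For Egr1 the difference was -0.52 ± 0.22 against contralateral left (SE, limma adjusted p = 0.309) and -0.72 ± 0.22 against 1 day (adjusted p = 0.138). Under at least 1 other setting Metrn, Car8, Tst, Fjx1, Btbd17 and Apln passed against contralateral left (lowest limma adjusted p from 0.00321 for Metrn to 0.0181 for Apln). Cldn5, Emp2 and Egr1 did not. Against 1 day Egr1 (lowest limma adjusted p 0.0306), Tst (0.0433) and Metrn (0.000765) passed under at least 1 other setting. In Tst and Metrn 10 day libraries 1 and 2 were above all 1 day libraries. Fjx1 encodes a secreted kinase-like regulator of planar polarity, and Emp2 a membrane protein of epithelia.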

How the data were processed

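Total RNA libraries of 18 mouse brain punches were analysed (6 groups of 3 animals, numbered as in the titles). The submitters' processing notes name genome build GRCm38, StringTie 1.3.4d, HISAT2 2.1.0 and Trimmomatic 0.36; settings, annotation and strand handling are not given in the sources used here. The authors deposited FPKM, 1 column per library. FPKM is scaled by the library total, so more mitochondrial RNA lowers all other genes, and read depth is unknown. The deposited p-value and q-value columns name no comparison and were not used in any test. The copy analysed holds 34921 complete gene entries and 1 incomplete one in order of the deposited q-value, and entries above a q-value of 0.908 are not analysed here (of the last 1000 complete ones, 106 reached 5 FPKM in sham right); 34797 matched GENCODE M21 (GRCm38), from which coordinates, lengths and exons were taken.

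The rule for the members was applied to group means of log2(FPKM + 1). Members, gene lists and tests were chosen with earlier results of these data known, and the roles and the interferon motif after the members were seen. The members outlined in full are the 12 lowest at 4 h, those called, those in a gene list (at most 4 a list), the 5 most abundant and those beside a threshold; others were picked after their values were seen. Genes with at least 1 FPKM in 3 or more libraries (14016) were fitted in limma 3.58.1 (R 4.3.3, statmod 1.5.0 and data.table, version 1.17.8), a mean per group over the 9 libraries the rule did not use, empirical Bayes with trend and robust settings, called at a Benjamini-Hochberg adjusted p under 0.05. The unit of replication is the animal. The fit was tested on simulated data. Python 3.11.15, numpy 2.4.6, pandas 2.3.3 and matplotlib 3.10.9 were used. Alternatives covered the pseudocount, the filter, scaling, the control group, a replicate block, all 18 libraries in the fit and leaving out libraries; leaving out contralateral left 5 and 10 day 5 together, and either contralateral left 5 or 4 h 6 in the count without overlap, was added after seeing the data.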

Additional observations from a re-analysis of the deposited data

Results flagged for a closer look

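For 7 members the change from contralateral left to 10 days differed from the change from contralateral left to 1 day, as tested by the difference between 10 days and 1 day with limma (adjusted p given in the report). The difference on log2(FPKM + 1) was 3.27 for Tyrobp, 1.96 for Dcn, 1.67 for P2ry13, 1.39 for Sparc, 1.39 for Gpx8, 1.26 for Pltp and 1.17 for Lmo2. In each of the 7 all 10 day libraries lay above all 1 day libraries. Their products belong to myeloid cells (Tyrobp, P2ry13), matrix (Dcn, Sparc), lipid transfer (Pltp), peroxide removal (Gpx8) and transcription in endothelial and blood cells (Lmo2). In the main fit no member differed in the other direction.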

How the results depend on the processing

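The count of members at 1 day against contralateral left (0, with 0.421% of all genes called) became 2 with all 18 libraries in the fit (1.74%). It ran from 0 to 11 when each library was left out (0.114% to 9.32% of all genes), 11 without contralateral left 5. At 10 days against contralateral left the count (5, with 5.10% of all genes called) became 9 with all 18 libraries (8.62%) and 3 with no filter on low values (1.94%). It ran from 4 to 8 when each library was left out (3.51% to 8.07% of all genes). At 10 days against 1 day (7, with 4.35% of all genes called) it ran from 4 to 9 (2.58% to 5.04%). Without contralateral left 5 and 10 day 5 together the counts were 47 (43 lower), 20 (10 lower) and 19 (1 lower), where 35.1%, 15.6% and 7.12% of all genes passed. The rule found 22 genes with a fall of at least 0.8, 39 with 3 days above sham right, 35 (31 of them members) after scaling without mitochondrial genes, which moved the 4 h median of all genes tested to 0.10, and 27 with contralateral left as the control; leaving out 1 library gave 59 to 186, with 186 without 4 h 2 and 130 without 4 h 3. The 3 day median of -0.03 became -0.10 under upper-quartile scaling. The 24 members without overlap between 4 h and contralateral left became 71 without contralateral left 5 and 28 without 4 h 6. The causes of these shifts were not tested. No called gene changed sign, but group medians near 0 did. The 3 day median became 0.02 after scaling without mitochondrial genes and ran from -0.03 to 0.01 when each library was left out. The contralateral left minus sham right median (-0.12) became 0.12 without contralateral left 5. The 10 day minus contralateral left median (0.05) became -0.24 without contralateral left 5 and -0.05 without 10 day 1 or 10 day 2. With 3 libraries a group and unknown depth, small differences were not detectable.

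Same-numbered libraries of the 3 tested groups had correlations of their deviations from -0.06 to 0.39 over 5 pairs, 2 of them over 0.1. Over all 6 groups they ran from -0.23 to 0.41 over 23 pairs, 9 of them over 0.1. The 2 same-numbered pairs of contralateral left and sham right had 0.22 and 0.10. The labels do not say what a number marks. With the replicate number as a block the 3 counts were 0, 1 and 1, Tyrobp being the call kept in both, where 0.0285%, 2.18% and 0.221% of all genes passed. With the block in all 18 libraries the counts were 14 (12 lower), 19 (10 lower) and 10 (none lower), where 5.17%, 12.9% and 5.24% of all genes passed.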
